A study of Mus musculus with 24 samples.

Results

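The CC chemokine ligands examined here are 10 genes taken from a fixed list of symbols and matched to the Ensembl identifiers of the count files, 10 of 54446 identifiers in all. Ccl2, Ccl7, Ccl8 and Ccl12 are the 4 listed as ligands of the receptor CCR2, and Ccl3, Ccl4, Ccl5, Ccl6, Ccl9 and Ccl22 are the other 6. The study asked how the m6A reader YTHDF2 shapes the response of tumour myeloid cells to radiotherapy. CD11b+ myeloid cells, selected by an integrin that monocytes, macrophages and neutrophils carry, came from MC38 tumours, a mouse colon carcinoma cell line implanted into C57BL/6J mice. In this MeRIP-seq experiment, poly(A) RNA fragments were sequenced before (Input) and after (IP) capture by an antibody that binds N6-methyladenosine (m6A). The 24 libraries form 8 groups of 3 replicates: Input and IP from WT and cKO mice, each untreated (Ctrl) or irradiated (IR). All mice carried floxed Ythdf2 alleles (Ythdf2 fl/fl). WT mice had no Cre, and cKO mice had Cre driven by Lyz2, a gene of the myeloid lineage, so that deletion is limited to cells that use that promoter. IR tumours received 1 dose of 20 Gy and cells were collected 3 days later. Cells of each replicate were pooled from several mice, and the methods name the replicates technical in one place but biological in another, so SEs and p-values measure the spread between libraries only. The growth protocol names tumours or blood as the source of cells, while every library is labelled as tumour.

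CC chemokines are small secreted proteins with adjacent cysteines that draw leukocytes towards a tissue through G protein-coupled receptors. CCL2, CCL7 and CCL12 are the monocyte chemoattractant proteins that move CCR2-bearing monocytes out of the bone marrow and into inflamed tissue and tumours. CCL3, CCL4 and CCL5 are inflammatory chemokines that draw T cells, NK cells and macrophages. CCL6 and CCL9 are CCR1 ligands made in quantity by rodent myeloid cells, and CCL22 is a CCR4 ligand that draws regulatory T cells. Many chemokine mRNAs are short-lived and induced by NF-kB. YTHDF2 binds m6A-marked mRNA and recruits the decay machinery.

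Gene counts summed to between 65180075 and 83661576 per Input and between 68846321 and 86421888 per IP library, which sets the precision of the weakly expressed members. Input Ythdf2, the targeted gene, did not fall in cKO: its CPM (counts per library rescaled to a common total by TMM) were 104 ± 1.32 in WT Ctrl and 193 ± 7.04 in cKO Ctrl (SD, n = 3), and counts over a whole gene cannot show the loss of single exons. Lyz2, the locus that drives Cre, reached 22200 CPM (Ctrl) and 22300 CPM (IR) in WT Inputs and 326 and 440 in cKO Inputs. In the IP libraries it was at 16100 CPM in WT Ctrl and 88.6 in cKO Ctrl, but after irradiation the labelled WT libraries held 89.6 and the labelled cKO libraries 19700. The 6 irradiated IP libraries therefore go against their genotype labels by Lyz2. They are called by their labels below, their IP over Input ratios are also given with the Input of the other genotype label, and the 12 Inputs were fitted without them. Itgam, the gene of the selected CD11b, was at 342 to 403 CPM (group means) in the Inputs. Together with Ptprc and Cd14, which were not used to select these cells, it summed to between 1410 and 1950 CPM (group medians). T cell markers reached at most 2.65 and B cell markers at most 0.8.

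The identifiers of the members in the count files are ENSMUSG00000035385.5 (Ccl2), ENSMUSG00000035373.2 (Ccl7), ENSMUSG00000009185.2 (Ccl8), ENSMUSG00000035352.3 (Ccl12), ENSMUSG00000000982.5 (Ccl3), ENSMUSG00000018930.3 (Ccl4), ENSMUSG00000035042.2 (Ccl5), ENSMUSG00000018927.3 (Ccl6), ENSMUSG00000019122.8 (Ccl9) and ENSMUSG00000031779.3 (Ccl22). All members but Ccl22 lie in 2 clusters on chromosome 11 (GRCm38). Ccl2 (chr11:82035571-82037453), Ccl7 (chr11:82045712-82047525), Ccl12 (chr11:82101845-82103400) and Ccl8 (chr11:82115185-82116799) lie in a row on the plus strand. Ccl5 (chr11:83525778-83530518), Ccl9 (chr11:83572919-83578636), Ccl6 (chr11:83587882-83593087) and Ccl3 (chr11:83647844-83649355) lie on the minus strand, beside Ccl4 (chr11:83662584-83664683) on the plus strand. Ccl22 (chr8:94745590-94751699, plus strand) lies apart from them. The stretches below hold summits of m6A peaks described with the IP results. Those of Ccl2, Ccl7 and Ccl4 span 61 bases of the GRCm38 plus strand each. Exon bases of the coding transcript are in capitals and intron bases in lower case. The first of Ccl2 lies within coding exon 1, and the others cross the start of exon 2 or 3. Ccl7 and Ccl4 each had a further summit group near exon 2, which is not printed.
Ccl2, summit in exon 1 (chr11:82035670-82035730): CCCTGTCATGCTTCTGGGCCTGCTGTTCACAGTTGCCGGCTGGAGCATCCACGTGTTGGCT
Ccl2, summit at exon 2 (chr11:82036440-82036500): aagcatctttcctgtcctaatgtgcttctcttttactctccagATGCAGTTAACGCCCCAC
Ccl2, summit at exon 3 (chr11:82036893-82036953): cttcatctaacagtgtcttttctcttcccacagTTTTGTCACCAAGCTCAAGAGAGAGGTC
Ccl7, summit (chr11:82046955-82047015): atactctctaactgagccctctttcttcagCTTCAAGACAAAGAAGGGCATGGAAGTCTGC
Ccl4, summit (chr11:83664259-83664319): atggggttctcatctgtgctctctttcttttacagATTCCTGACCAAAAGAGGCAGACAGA
The sixth stretch, on the minus strand, is 29 bases of the Ccl6 3′ UTR with GGACT, a common form of the m6A consensus, in capitals. Its GGACT lies 29 bases from a summit found in all 12 IP libraries.
Ccl6, 3′ UTR site (chr11:83588674-83588702): cagtattcatgtGGACTccgcctgacacg

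The 10 ligands differed in Input level by more than 3 orders of magnitude. On a length scale (scaled CPM per kb of merged exon), WT Ctrl Inputs had Ccl5 at 542 ± 28.1 and Ccl6 at 533 ± 4.71 (SD, n = 3). The Ccl6 mean lay within the spread of Ccl5. Ccl22 at 380 ± 9.09 and Ccl9 at 358 ± 6.96 came next. Ccl3 followed at 97.6 ± 1.68 and Ccl4 at 14.6 ± 1.17. The CCR2 ligands were the lowest 4, with Ccl2 at 4 ± 0.331, Ccl7 at 0.445 ± 0.183, Ccl12 at 0.161 ± 0.0667 and Ccl8 with no count. The order of the upper ranks shifted between groups: in cKO IR Inputs Ccl6 led at 897 ± 50.8, ahead of Ccl5 at 729 ± 11.9, Ccl22 at 618 ± 9.05 and Ccl9 at 570 ± 27.8. The lower ranks kept the order Ccl3, Ccl4, Ccl2, Ccl7, Ccl12 and Ccl8 in every Input group, with Ccl12 and Ccl8 both at 0 in WT IR. All 10 together made up 0.328% of Input gene counts in untreated WT cells and 0.395% after irradiation, and in cKO cells 0.37% and 0.535% (means, n = 3).

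**Figure D1:**
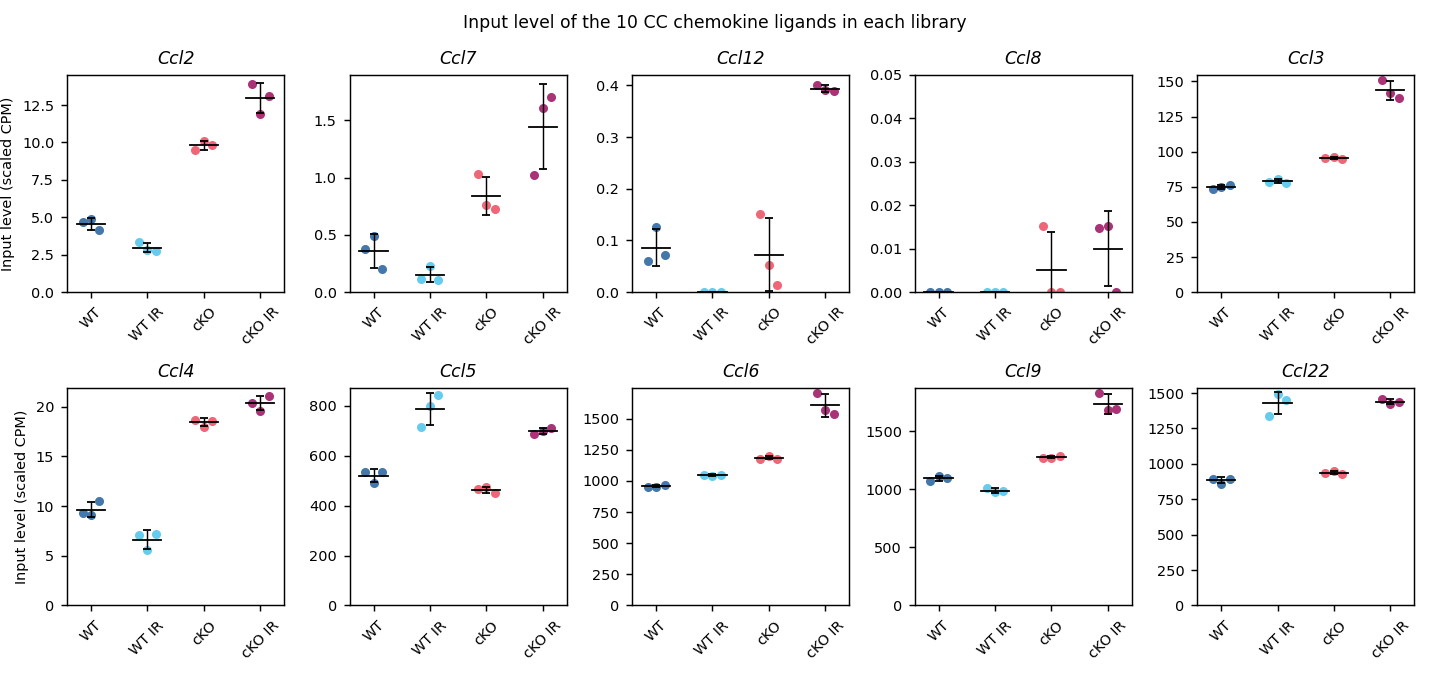
Input level of each of the 10 ligands in scaled CPM, by group, with 1 point per library, a line at the mean and a bar of 1 SD (n = 3). In Ccl2 and Ccl4 the WT IR points lie lowest and the cKO IR points highest, and in Ccl7 the group means have that order with overlapping points, whereas Ccl5 and Ccl22 are raised in both irradiated groups.

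The Input libraries asked how irradiation changed these transcripts with and without myeloid Ythdf2. Ccl2 stood at 4.66, 4.87 and 4.14 CPM in WT Ctrl against 3.33, 2.84 and 2.74 in WT IR, and at 9.52, 10.1 and 9.82 in cKO Ctrl against 13.9, 11.9 and 13.1 in cKO IR. The 4 groups did not overlap, with WT IR lowest and cKO IR highest. After irradiation Ccl2 fell by 0.61 on the log2 scale in WT (SE 0.10, adjusted p = 0.00011, edgeR quasi-likelihood test) and rose by 0.42 in cKO (SE 0.09, adjusted p = 0.00054). The difference between both irradiation effects was 1.03 (SE 0.14, adjusted p = 8.9e-06), and cKO Ctrl was already above WT Ctrl by 1.10 (SE 0.09, adjusted p = 5.1e-08).

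Ccl7, a second monocyte chemoattractant, had the same order of group means at far fewer reads. Its counts were 25, 35 and 14 in WT Ctrl against 7, 14 and 7 in WT IR, and 68, 59 and 51 in cKO Ctrl against 69, 107 and 105 in cKO IR. The genotypes did not overlap, while both WT groups did at 14 counts. In scaled CPM both cKO groups overlapped as well, with replicate 1 at 1.03 in cKO Ctrl and 1.02 in cKO IR. Ccl7 fell by 1.22 on the log2 scale in WT after irradiation (SE 0.43, adjusted p = 0.035), a call lost when WT Ctrl replicate 1 or 2 or WT IR replicate 1 or 3 was left out (adjusted p = 0.079, 0.17, 0.081 and 0.13). In cKO the value was 0.80 (SE 0.33, adjusted p = 0.053), which did not pass. Between irradiated groups Ccl7 was 9.43-fold higher in cKO than in WT (log2 3.24, SE 0.40, adjusted p = 1e-06). Before irradiation cKO was higher by 1.22 (SE 0.36, adjusted p = 0.023), and that call was lost without WT Ctrl replicate 1 or 3 or cKO Ctrl replicate 1 (adjusted p = 0.061, 0.12 and 0.1).

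Ccl12, the mouse relative of CCL2, was counted 4, 9 and 5 times in WT Ctrl, 10, 4 and 1 times in cKO Ctrl and 27, 26 and 24 times in cKO IR, and not once in the 3 WT IR Inputs. The cKO IR libraries lay above all others, and both Ctrl groups overlapped. With no read found, 3 counts over the group set a ceiling of 0.0147 CPM in WT IR, so Ccl12 was at least 5.46-fold lower there than in WT Ctrl (adjusted p = 0.0065) and at least 25.2-fold higher in cKO IR (adjusted p = 3.8e-05). These bounds set 3 counts for the empty group and take the other group's counts as exact. With counting error on both sides, the exact 95% interval of the WT IR to WT Ctrl ratio ended at 0.25 and that of the cKO IR to WT IR ratio began at 20. Neither the intervals nor the bounds cover the spread between libraries. In cKO, 77 counts after irradiation against 15 before gave a ratio of 5.71 (95% exact interval 3.26 to 10.7, adjusted p = 0.0059). Ccl8, listed here with the CCR2 ligands, gave 1 count in the cKO Ctrl Inputs, 2 in cKO IR and none in the other 18 libraries, too few for a test.

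Among the other 6 ligands, Ccl4 followed the same order as Ccl2. Ccl4 stood at 9.3, 9.08 and 10.5 CPM in WT Ctrl against 7.12, 5.54 and 7.19 in WT IR, and at 18.7, 18 and 18.6 in cKO Ctrl against 20.4, 19.6 and 21.1 in cKO IR. The 4 groups did not overlap. It fell by 0.54 on the log2 scale in WT after irradiation (SE 0.09, adjusted p = 9.2e-05), whereas in cKO the difference was 0.16 (SE 0.08, adjusted p = 0.12), which passed, of the settings run, only in a fit of the 6 cKO Inputs alone (adjusted p = 0.019). Across the 12 Inputs the log2 levels of Ccl2 and Ccl4 had a Pearson r of 0.98, and those of Ccl2 and Ccl7 0.94. The points share groups and scaling, so these values describe the group pattern and were not tested.

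Ccl3, the neighbour of Ccl4, did not fall in WT. Its level was 73.5, 74.6 and 76.1 CPM in WT Ctrl against 78.5, 80.7 and 77.6 in WT IR, then 95.3, 96.3 and 94.6 in cKO Ctrl and 151, 142 and 138 in cKO IR. The WT groups lay side by side without overlap, with a log2 difference of 0.08 that did not pass the test (SE 0.04, adjusted p = 0.11), and the cKO IR libraries lay far above the rest. Ccl3 rose by 0.61 in cKO after irradiation (SE 0.04, adjusted p = 8.6e-11). The CCR1 ligand Ccl6 was at 951, 953 and 966 CPM in WT Ctrl against 1050, 1040 and 1050 in WT IR, and at 1180, 1200 and 1180 in cKO Ctrl against 1710, 1570 and 1540 in cKO IR. Its groups did not overlap, and it rose by 0.14 in WT (adjusted p = 0.0026) and by 0.45 in cKO (adjusted p = 5.6e-10). Ccl9, the other CCR1 ligand, was at 1070, 1110 and 1100 CPM in WT Ctrl against 1010, 974 and 982 in WT IR, and at 1270, 1270 and 1290 in cKO Ctrl against 1830, 1680 and 1690 in cKO IR. Its groups did not overlap either, but it fell by 0.14 in WT (adjusted p = 0.002) and rose by 0.46 in cKO (adjusted p = 3.2e-10).

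Ccl5 and Ccl22 rose after irradiation in both genotypes. Ccl22 was at 896, 859 and 894 CPM in WT Ctrl against 1340, 1490 and 1450 in WT IR, and at 938, 949 and 925 in cKO Ctrl against 1460, 1420 and 1440 in cKO IR. Irradiated and untreated libraries did not overlap, and the irradiated genotypes did. Ccl22 rose by 0.70 in WT (SE 0.03, adjusted p = 2.5e-12) and by 0.63 in cKO (SE 0.03, adjusted p = 9.5e-12), and the difference of −0.07 (SE 0.05, adjusted p = 0.31) did not pass, except that it passed without WT IR replicate 1 (−0.11, adjusted p = 0.0083). Ccl5 was at 536, 489 and 536 CPM in WT Ctrl against 716, 801 and 844 in WT IR, and at 466, 473 and 449 in cKO Ctrl against 689, 700 and 711 in cKO IR. Each irradiated group lay above both untreated ones, and within a treatment the WT libraries were the higher. Ccl5 rose by 0.61 in cKO (SE 0.05, adjusted p = 1.8e-09), and its irradiation effect differed between genotypes by 0.01 (SE 0.07, adjusted p = 0.93). The summed level of dendritic cell markers had a median of 847 CPM in WT Ctrl against 1110 in WT IR, and of 857 in cKO Ctrl against 1040 in cKO IR. Most of that sum was 1 gene, Fscn1, with means of 783 and 1020 CPM in WT and 804 and 956 in cKO. Flt3, Zbtb46 and Ccl17 also rose in both genotypes. Cd209a, at most 0.134 CPM in Input, fell in both, and Xcr1 was at 0 in WT IR and cKO Ctrl. The part of dendritic cells in the Ccl5 and Ccl22 results was not tested.

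Counted over the list, 8 of the 9 tested members changed in WT after irradiation, 5 lower and 3 higher, where 31.7% of all genes tested were called. In cKO 7 rose and none fell (45.6% of all genes). In untreated cells 6 were higher and 1 lower in cKO than in WT (15.7%), and in irradiated cells 7 were higher and 1 lower (47.7%), the 1 being Ccl5 each time. The Ccl5 differences were −0.18 (adjusted p = 0.011) and −0.17 (adjusted p = 0.0054), and both calls were lost without single libraries (adjusted p up to 0.07). Of the others, Ccl4 was higher in untreated cKO cells by 0.93 (SE 0.08, adjusted p = 1e-07), Ccl3 by 0.34, Ccl6 by 0.30 and Ccl9 by 0.21. Outside the CCR2 ligands the largest difference between irradiated genotypes was that of Ccl4 at 1.62 (SE 0.09, adjusted p = 1.1e-11), followed by Ccl3 at 0.86, Ccl9 at 0.81 and Ccl6 at 0.62, while Ccl22 differed by 0.01 (SE 0.03, adjusted p = 0.87). The irradiation effect was more positive in cKO than in WT for 7 (30.2%). The CCR2 ligands, 3 of 4 tested, were lower in WT IR in all 3 cases, with a median log2 change of −1.22, while the other 6 ligands had a median of 0.11 with 2 lower and 3 higher, and all genes one of 0.01. In cKO IR against WT IR the medians were 3.24 for the CCR2 ligands, 0.71 for the others and 0 for all genes. For the difference between irradiation effects they were 2.02, 0.42 and 0. Each of these CCR2 ligand medians is the value of Ccl7, so setting Ccl12 to its bound could not change −1.22 or 3.24. Ccl7 and Ccl12 are scarce. The better counted Ccl2 fell in WT by an amount (−0.61) close to that of Ccl4 (−0.54), one of the other 6.

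As a share of the 10 genes' counts within a library, which library scaling does not touch, the CCR2 ligands took 0.141% ± 0.0171 in WT Ctrl against 0.072% ± 0.00881 in WT IR, and 0.269% ± 0.00235 in cKO Ctrl against 0.262% ± 0.0114 in cKO IR (SD, n = 3). The share was lowest in WT IR and about the same in both cKO groups. It also moves with the other ligands, which summed to 3490 to 3580 CPM in WT Ctrl and 4210 to 4420 in WT IR. In cKO both sides rose: the other ligands from 3960 to 4010 CPM in Ctrl to 5530 to 5860 in IR. The cKO CCR2 ligands rose from 10.6 to 10.9 CPM in Ctrl to 13.9 to 15.3 in IR. Monocyte markers summed to median Input levels of 871 CPM in untreated and 363 in irradiated WT cells, and 710 and 437 in cKO cells, and neutrophil markers to 1950, 661, 938 and 561. Both sums were lower after irradiation in both genotypes. The largest monocyte marker was Chil3, with means of 536 and 139 CPM in WT Ctrl and WT IR and 337 and 189 in the cKO groups. Not every monocyte marker fell: Vcan was at 58.9 in WT Ctrl and 77.5 in WT IR. Macrophage markers were at 3950, 3700, 4210 and 4210 CPM. Erythroid markers were at 28.3 CPM in WT IR and at most 0.0556 in the other Input groups. Mitochondrial transcripts took 6.13 to 7.25% of counts in WT IR and 3.39 to 3.75% in cKO IR. The part of these differences in the chemokine results was not tested, and in bulk samples fewer cells of a type and less RNA per cell cannot be told apart.

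**Figure D2:**
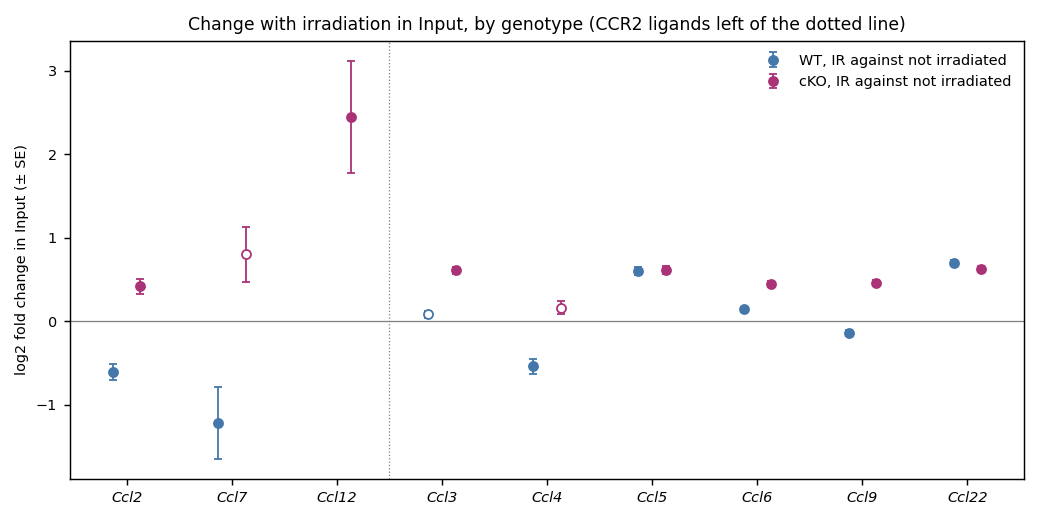
Change in Input level after irradiation on the log2 scale, with SE, for each ligand in WT and in cKO, with filled points for adjusted p under 0.05 in edgeR's quasi-likelihood test and open points otherwise. Ccl2 is at −0.61 in WT and 0.42 in cKO, and Ccl22 at 0.70 and 0.63. Ccl12 in WT, with no count in WT IR, and Ccl8 are not drawn.

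The IP libraries asked which of these transcripts were recovered by the m6A antibody. Of the 9 tested members, 6 were higher and 2 lower in IP than in Input of WT Ctrl, where 75.5% of all genes differed. Ccl2 was at 148, 149 and 137 CPM in the WT Ctrl IP libraries against at most 4.87 in Input, with no overlap. Its IP over Input ratio of 31.7-fold (log2 4.99, SE 0.06, adjusted p = 2.2e-36) ranked 140 of 17373 genes. Ccl7 ranked 459 with a log2 ratio of 3.24 (SE 0.21), Ccl6 517 with 3.13 and Ccl12 600 with 2.95 (SE 0.49). Ccl6 reached 8580, 8670 and 7830 CPM in WT Ctrl IP, so that one of the most abundant members had a ratio near those of the scarce Ccl7 and Ccl12. Ccl4 was enriched to a lesser extent, with a log2 ratio of 1.62 and rank 2143.

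Ccl3 and Ccl9 were recovered about in proportion to their Input, with log2 ratios of −0.03 (adjusted p = 0.53) and 0.09 (adjusted p = 0.0028) in WT Ctrl. The Ccl9 call was lost with the scaling of DESeq2 (0.034, adjusted p = 0.25). Ccl5 and Ccl22 were depleted. Ccl5 was at 46.2, 47.9 and 46.8 CPM in WT Ctrl IP against 489 to 536 in Input, a log2 ratio of −3.47 that ranked 16645, and Ccl22 was at −1.28 and ranked 14182. In cKO Ctrl 5 members were higher and 4 lower in IP (73.7% of all genes), with Ccl2 at 4.20, Ccl7 at 2.95, Ccl12 at 3.63, Ccl6 at 2.85, Ccl5 at −4.12 and Ccl22 at −2.20. The median log2 ratios of the CCR2 ligands were 3.24 in WT Ctrl and 3.63 in cKO Ctrl, those of the other 6 ligands 0.03 and −0.14, and those of all genes 0.02 in both.

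With the irradiated libraries taken by label, 7 members were higher and 2 lower in IP in WT IR (73.5% of all genes), and 4 were higher and 4 lower in cKO IR (73.8%). Against the Input of the other genotype label, 5 were higher and 4 lower with the WT IR label (71.5% of all genes) and 7 higher and 2 lower with the cKO IR label (75.4%). The log2 ratio of Ccl2 was 6.39 with the WT IR label and 3.83 with the cKO IR label. With the Inputs exchanged these were 4.26 and 5.96, so the order of both groups turned. Ccl7 gave 6.04 and 1.81 by label and 2.80 and 5.04 with the Inputs exchanged. Ccl5 stayed depleted at −4.43 and −3.42 by label and −4.26 and −3.59 exchanged, and Ccl6 enriched at 3.40 and 2.80 by label and 2.78 and 3.41 exchanged. Ccl12 was counted 223 times in the IP libraries labelled WT IR against 0 in their Inputs. That is at least 69.7-fold higher with 3 counts set for the Inputs, and the exact 95% interval began at 56.2. Against the cKO IR Inputs, however, its log2 ratio was 1.27 (SE 0.40, adjusted p = 0.0061). The libraries labelled cKO IR gave 0.71 for Ccl12 (SE 0.41, adjusted p = 0.12) by label, and against the WT IR Inputs with their 0 counts it was at least 45.7-fold higher (adjusted p = 1.6e-09). Ccl4 gave 2.23 and 0.51 by label and 0.61 and 2.13 exchanged, and Ccl22 gave −2.25 and −1.52 by label and −2.25 and −1.51 exchanged. Ccl3 changed sign with the Input used, from 0.65 to −0.21 with the WT IR label and from −0.53 to 0.33 with the cKO IR label, and Ccl9 likewise from 0.63 to −0.18 and from −0.12 to 0.69. The median log2 ratios by label were 6.39 (6.12 with Ccl12 at its bound) and 1.81 for the CCR2 ligands and 0.64 and −0.32 for the other 6, against 0.01 and −0.01 for all genes. With the Inputs exchanged they were 2.80 and 5.96 (5.52 with Ccl12 at its bound) for the CCR2 ligands and −0.20 and 0.51 for the others, so the order of the labelled groups turned here too, while the CCR2 ligands had the higher median in each case.

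**Figure D3:**
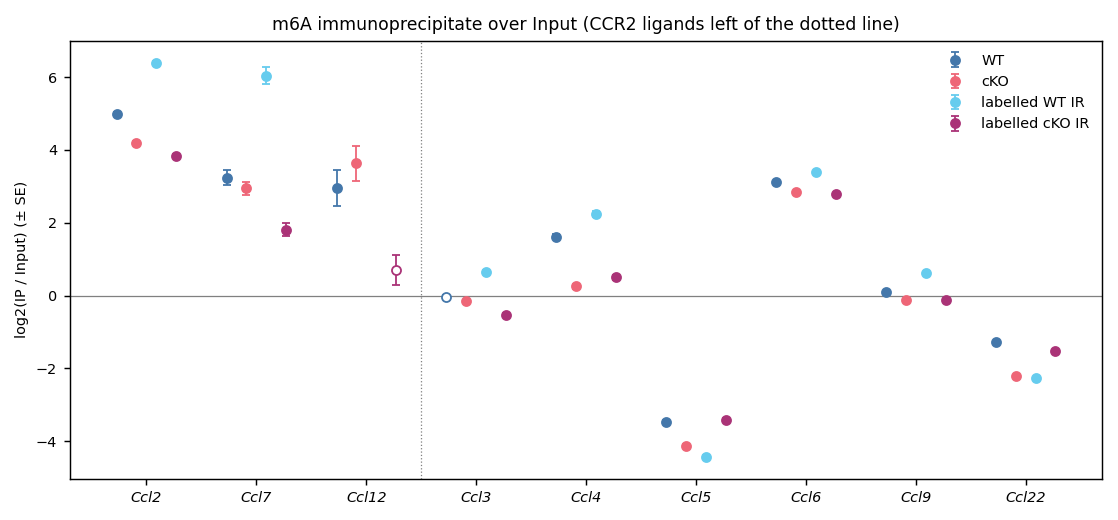
IP over Input ratio on the log2 scale, with SE, for each ligand in the 4 labelled groups, with filled points for adjusted p under 0.05 (edgeR) and open points otherwise. Ccl2, Ccl7 and Ccl6 lie above 0 in all 4 groups and Ccl5 and Ccl22 below 0. Ccl12 in the libraries labelled WT IR, with no Input count, and Ccl8 are not drawn.

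Between untreated genotypes, 3 members were higher and 3 lower in cKO than in WT IP libraries, where 26.7% of all genes were called. Ccl2 was at 178, 182 and 180 CPM in cKO Ctrl IP, above the WT Ctrl libraries, a log2 difference of 0.31. Ccl7 was at 3.37, 3.08 and 3.74 CPM in WT Ctrl IP and 6.14, 6.35 and 6.98 in cKO Ctrl IP, again without overlap, and differed by 0.93. Ccl3 differed by 0.24. Ccl4 was at 30.9, 28 and 29.7 CPM in WT Ctrl IP against 22.3, 23.6 and 20.5 in cKO Ctrl IP, a difference of −0.42 where its Input was higher in cKO by 0.93. Ccl22 was at 360, 358 and 370 CPM against 210, 199 and 205 (−0.83), and Ccl5 differed by −0.82. Between the IP libraries labelled cKO IR and WT IR, 2 members were higher and 3 lower (35.8% of all genes). The 5 were Ccl2 at −0.43, Ccl7 at −0.99, Ccl3 at −0.31, Ccl5 at 0.84 and Ccl22 at 0.74. By label Ccl2 was at 243, 250 and 254 CPM (WT IR) and 189, 184 and 181 (cKO IR), and Ccl5 at 37.6, 35.5 and 36.6 and 65.2, 66.3 and 64.5, with no overlap. Each of these 5, picked because they were called, had the opposite sign in the untreated comparison, which shares no library with this one. Of the members not called by label, Ccl4 kept its sign (−0.42 untreated and −0.11 by label) and Ccl12 turned (0.39 and −0.56, called in neither). Ccl6 (0.04 and 0.02) and Ccl9 (0.01 and 0.06) kept theirs at values near 0. The share of all genes that changed sign was not computed, so this describes the members only. In the Inputs of the same labels Ccl2 and Ccl7 were higher in cKO IR by 2.13 and 3.24.

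The deposited peak lists were next searched for m6A peaks over the genes. A consensus peak, one shared by the 3 libraries of a group on the gene's own strand, lay over 5 members in WT Ctrl (Ccl2, Ccl7, Ccl4, Ccl6 and Ccl9), against 27.7% of 17367 genes. The libraries labelled WT IR had 6, with Ccl3 in addition (23.3% of genes). cKO Ctrl and the libraries labelled cKO IR had 4 each, without Ccl9 and Ccl3 (25.7% and 20.8%). No peak list gave a consensus over Ccl5, Ccl8, Ccl12 or Ccl22. For Ccl12, which was enriched in IP by counts, depth was at most 84 counts per IP library.

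Ccl2 carried 3 groups of summits, over the sequences given above. The first, in coding exon 1, was found in 12 of 12 libraries with a fold enrichment of 5.62 to 6.38 in WT Ctrl, 7.33 to 8.42 in cKO Ctrl, 10.5 to 12.1 in the libraries labelled WT IR and 6.68 to 8.49 in libraries labelled cKO IR. The third, 3 bases before exon 3, was also found in all 12, at 8.49 to 12.3, 6.3 to 6.73, 16.4 to 23.5 and 4.76 to 5.21. These are the authors' peak values and were not compared by a test. The second Ccl2 summit, 13 bases before exon 2, was found in 10 libraries. In Ccl7 the summit at the start of exon 3 was found in all 12 libraries, at 5.81 to 6.5 in WT Ctrl and 9.3 to 11.1 in cKO Ctrl. In Ccl4 the summit 5 bases before exon 3 was found in all 12, at 3.64 to 3.77 in WT Ctrl and 1.63 to 1.82 in cKO Ctrl. A further Ccl4 group, 28 bases before exon 2, was in all 3 WT Ctrl libraries (3.81 to 11). It was also in all 3 labelled WT IR (7.73 to 14.7), and in no other library. A further Ccl7 group, 4 bases before exon 2, was in all 3 labelled WT IR (5.42 to 6.78) and all 3 cKO Ctrl (4.34 to 6.59), and in no other. Presence in the peak lists was not compared by a test.

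Some of the members' summits thus lay close to exon starts. Of the 12 summit groups on the strand of a member that were found in at least 6 libraries, 6 lay within 15 bases of an internal exon border. That distance was chosen after the values were seen, and the rest lay 28 to 777 bases from a border. Over all genes 18.7 to 22.7% of consensus peak summits lay within it, depending on the group. That share counts peaks and not summit groups, over genes of any exon spacing. The authors' caller extended reads in genome coordinates without regard to introns, and its part in these positions was not tested. GGACT lay within 100 bases of the summit in 1 of the 12, the Ccl6 3′ UTR group shown above, whose fold enrichment was 1.54 to 1.61 in WT Ctrl. Of all consensus peaks 21.1 to 21.6% held GGACT there, and 18.1 to 18.7% held it in windows 400 bases away. The windows were of genomic sequence, so at exon starts they held intron bases and not the preceding exon of the spliced mRNA. No match means only that these 5 letters were not in the window.

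Ccl6, Ccl3 and Ccl2 also had consensus peaks on the strand opposite to the gene. Ccl3 and Ccl6 had them in WT Ctrl (3.63% of genes), and Ccl2 in addition in the other 3 groups (3.04%, 3.18% and 2.82%, in the order labelled WT IR, cKO Ctrl, labelled cKO IR). Ccl6 had 5 such summit groups, each found in 12 of 12 libraries, with fold enrichments between 3.38 and 13.7, higher than those of its 3′ UTR peak. That range overlapped those of 2 intron groups on the strand of Ccl6, 3.05 to 5.58 in 10 libraries and 3.02 to 4.7 in 7. Ccl3 had 1 in all 12 libraries, at 2.54 to 2.72 in WT Ctrl and 3.55 to 5.46 in cKO Ctrl. Over all genes 0.909 to 2.09% of summits in exons lay on the opposite strand. A gene annotated on the plus strand over Ccl6, E230016K23Rik, shares no exon base with it and was at 1.09 to 1.31 CPM in Input and 12.2 to 25.1 in IP (group means). The opposite-strand summits of Ccl2, found in 11 libraries at 3.13 to 8.31-fold, lay over the exon 1 stretch given above. Their median position was chr11:82035712, and that of the exon 1 summits on the gene's own strand was chr11:82035700. Gm17268, antisense to Ccl2, had no count in any library.

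**Figure D4:**
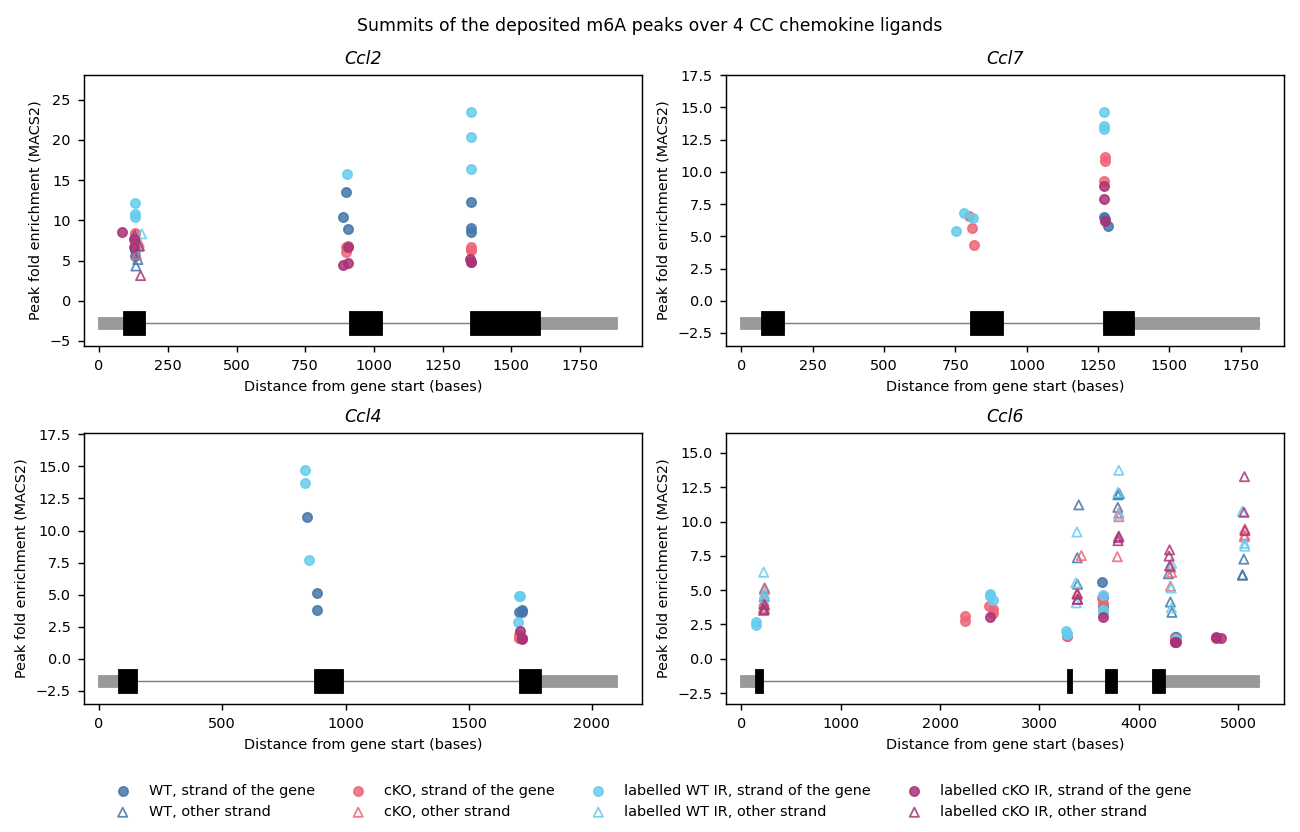
Fold enrichment of deposited peaks against the distance of the summit from the gene start in bases, for Ccl2, Ccl7, Ccl4 and Ccl6, with circles on the strand of the gene, open triangles on the other strand, and colours for the 4 IP groups. Boxes below mark coding (black) and untranslated (grey) exon parts. In Ccl2 the summits gather at exon 1 and at the starts of exons 2 and 3, and in Ccl6 the other strand holds 5 groups of summits.

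Sequence features shared by the members were few. The AU-rich pentamer ATTTA, a core of elements that shorten the life of cytokine mRNAs, occurred on the transcript strand of the last exon 2 times in Ccl2, Ccl7, Ccl4 and Ccl22, 4 times in Ccl6, 5 times in Ccl12, Ccl3 and Ccl9, and not at all in Ccl8 or Ccl5. The nonamer TTATTTATT was in none of these exons. Of the 7 members whose last exon has 300 bases or more, 5 held ATTTA in its last 300 bases, all but Ccl9 and Ccl22. In the same window of 12176 coding genes, 41.1% held ATTTA and 2.13% the nonamer. The NF-kB motif, 10 letters with 2 of them free, was searched on both strands from 250 bases before to 50 after the start. It occurred in 1.47% of 32851 promoters and in none of Ccl3, Ccl6, Ccl8, Ccl9, Ccl12 and Ccl22, the 6 members in the promoter set used. Ccl2, Ccl7, Ccl4 and Ccl5 were not in that set and were not searched. At so low a share, no match among 6 says little about these genes.

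Related genes from fixed lists were followed in the Inputs. Of 10 further CC ligands 4 were tested, and 1 rose in WT IR, Ccl17, the CCR4 ligand that neighbours Ccl22 (log2 0.50, adjusted p = 2.3e-06). Ccl17 was at 13.1 ± 0.578 CPM in WT Ctrl Input and 2190 ± 81.2 in IP (SD, n = 3), a log2 ratio of 7.39, whereas its neighbour Ccl22 was depleted. It is also among the dendritic cell markers above. Of 10 CC receptors and decoys tested, 2 rose and 2 fell in WT IR, near the 31.7% called among all genes. Ccr2, the receptor of the CCR2 ligands, was among those that fell in WT (−0.94, adjusted p = 2.7e-10), and it fell in cKO as well, by 1.06. It is also one of the monocyte markers. Of 17 NF-kB and IRF regulators 6 rose and 4 fell in WT IR (31.7% of all genes called), and 8 were higher and 5 lower in cKO IR than in WT IR (47.7%), with Irf7, an interferon-induced transcription factor, at −0.86 and 2.22. Of 15 chemokine mRNA decay factors, 6 rose and 3 fell in WT IR, and 9 were lower and 3 higher in cKO IR against WT IR, beside the same 31.7% and 47.7% of all genes, among them Rc3h1 at −0.52, Rc3h2 at −0.50 and Cnot1 at −0.49, which encode the Roquin proteins and the scaffold of the CCR4-NOT deadenylase.

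The genes most like each member were taken by Pearson r of log2 CPM over the 12 Inputs, among 9410 genes with a mean of at least 5 CPM. For Ccl2 these were Tifa (0.996) and the interferon-induced Ifi27l2a (0.991), and for Ccl4 the interferon-induced Oas1a (0.996) and Cmpk2 (0.992). Ccl3 and Ccl6 both had Ms4a6d among their closest (0.993 and 0.989). Ccl22 was closest to Cdkn1a, a p53 target (0.995), and Tmem123 (0.994). Ccl5 was closest to Clec2i and Cav1 (0.983 each), and Ccl9 to Prdx5 (0.99). For the scarce members the closest were Rnaseh2a for Ccl7 (0.98) and Casp4 for Ccl12 (0.981). All points share the 4 groups and the library scaling, so these values describe shared group patterns.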

How the data were processed

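Per the study's methods and the submitters' processing notes, adapters were removed with Trimmomatic 0.39, alignment to mm10 (GRCm38) used HISAT with GENCODE vM19 and strand-specific settings, and HTSeq tallied reads per gene. The authors deposited these raw counts for each library, unscaled and unpooled. IP alignments were split by strand and peaks were called in each library with MACS2, extending reads in genome coordinates. For each peak the authors deposited its position, a fold enrichment (a ratio over a control), the −log10 of its p-value, the −log10 of its q-value and a peak caller's score. The Input that served as control and the strand setting of HTSeq are not given in the sources used here. Fold enrichments were described only, without a test.

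Identifiers were matched to GENCODE vM21 (54409 of 54446), and exons of members came from their coding transcripts. Reads in no feature made up 2.86 to 6.55% and ambiguous reads 2.19 to 2.58%, and both stayed out of library sizes. Groups and replicate numbers came from the labels. The main test was edgeR 4.0.16 (quasi-likelihood F, limma 3.58.1, R 4.3.3) with TMM scaling, keeping genes that reached 10 counts in 3 or more libraries, with Benjamini-Hochberg adjustment over all genes tested and calls at 0.05. Input contrasts used the 12 Inputs (16090 genes) and IP contrasts all 24 libraries (17373 genes). CPM values are scaled by TMM, and those of marker lists are unscaled. No pair of libraries of a group agreed within sampling noise in a chi-square test. DESeq2 1.42.0, other scalings and filters, single libraries left out, a replicate block, 6-library fits, a higher peak threshold and the Input of the other genotype label were alternatives. The code was tested on simulated data. Peaks and sequences were read with Python 3.11.15 and pysam 0.24.0.

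The members and lists were chosen with earlier results of these data known. All 10 members are named. From the lists, genes were eligible when called in WT IR against WT Ctrl or in cKO IR against WT IR and among the 3 largest changes of their list there. The closest genes were those with the highest 2 Pearson r per member, on log2(CPM + 0.5). Promoters are from a RefSeq set (GRCm38) that held 6 of 10 members, without Ccl2, Ccl7, Ccl4 and Ccl5.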

Additional observations from a re-analysis of the deposited data

Results flagged for a closer look

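The effect of irradiation on Input level differed between genotypes for 7 of the 9 tested members, by the interaction term of edgeR's quasi-likelihood fit over the 12 Inputs (30.2% of all genes tested). The difference, cKO minus WT on the log2 scale, was 1.03 for Ccl2 (SE 0.14), 2.02 for Ccl7 (SE 0.54), 0.69 for Ccl4 (SE 0.12), 0.60 for Ccl9 (SE 0.04), 0.52 for Ccl3 (SE 0.05) and 0.31 for Ccl6 (SE 0.05). For Ccl12 the fitted value was 8.01 (SE 1.55), which depends on the prior count because WT IR had no read and is no bound. Groups of 3 replicates were too small for a search for single outlying libraries.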

How the results depend on the processing

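The members' calls depended little on the processing. Of 648 results without 1 library, 620 kept direction and side of the threshold, 12 lost their call, 4 gained one and 12 turned sign, and of 623 under other alternatives 603, 4, 8 and 8 did. Those that turned sign had not passed the test, except where the Input of the other genotype label was used: there Ccl3 gave −0.21 (labelled WT IR) and 0.33 (labelled cKO IR), and Ccl9 −0.18 and 0.69, because that alternative exchanges the Inputs. Ccl22 in cKO IR against WT IR gave −0.0023 with DESeq2's size factors and with DESeq2, and −0.012 with a minimum of 50 counts, and Ccl5 in the difference between irradiation effects gave −0.0028 with that minimum. Without 1 library these 2 values ranged from −0.037 to 0.038 and from −0.06 to 0.06, Ccl12 in cKO Ctrl against WT Ctrl from −1.33 to 0.19, Ccl6 in the IP comparisons from −0.0091 to 0.06 (Ctrl) and −0.0021 to 0.04 (labelled IR), and Ccl9 in Ctrl IP from −0.0074 to 0.015. Ccl5 in cKO Ctrl against WT Ctrl did not pass when WT Ctrl replicate 1, WT Ctrl replicate 3 or cKO Ctrl replicate 3 was left out (edgeR adjusted p = 0.07, 0.068 and 0.064), and in cKO IR against WT IR when WT IR replicate 3 was (0.053). The Ccl7 rise in cKO, not called here, passed with DESeq2 (0.036) and in 4 other settings, and its fall in WT did not pass in the 6-library fit (0.11). That fit also called Ccl4 in cKO IR against cKO Ctrl (0.019) and Ccl22 in cKO Ctrl against WT Ctrl (0.0038). Without the 6 irradiated IP libraries, an alternative chosen after seeing the data, the Ccl9 ratio in WT Ctrl lost its call (0.05, adjusted p = 0.091). Counts of members called stayed between 5 and 8 in cKO Ctrl against WT Ctrl (main 7), while genes called there numbered 3870 in the 6-library fit against 2520. Unscaled library totals moved the members' summed Input level from 3540 to 3280 CPM (WT Ctrl), 4340 to 3950 (WT IR), 3990 to 3700 (cKO Ctrl) and 5660 to 5350 (cKO IR). Of members with a consensus peak, a minimum of 4-fold enrichment kept 2 of 5 in WT Ctrl, 2 of 4 in cKO Ctrl, 2 of 4 in the libraries labelled cKO IR and 4 of 6 in those labelled WT IR. Same-numbered replicates of different groups shared little deviation: 2 of 18 Input pairs and 11 of 84 pairs over all libraries had a correlation over 0.1. Pairs of an Input and the IP of the same group were not examined separately, so whether the numbers pair those was not tested. With a replicate block 8, 7, 7, 8 and 7 members were called in the 5 Input contrasts, as without it, and 8, 9, 9, 8, 6 and 5 in the IP contrasts. Depth limits Ccl7, Ccl12 and Ccl8, whose Inputs held at most 107, 27 and 1 counts.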

Other observations

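Set beside each other per gene, Input and IP levels of the members gave different orders. In WT Ctrl Input Ccl5 was at 542 ± 28.1, at the top of the order with the Ccl6 mean inside that spread. In WT Ctrl IP Ccl5 was at 48.9 ± 0.893, below Ccl2 at 127 ± 5.81 (scaled CPM per kb, SD, n = 3). The CCR2 ligands took 0.141% of the 10 genes' counts in WT Ctrl Input and 1.46% in WT Ctrl IP, and the 10 genes took 0.328% of all Input counts and 1.09% of all IP counts. Ccl6 alone held 4660 ± 257 scaled CPM per kb in WT Ctrl IP.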
